A study of Mus musculus with 41 samples.

Results

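*Tle1*, *Tle2*, *Tle3* and *Tle4* encode the 4 long Groucho-type co-repressors of the mouse and were examined as 4 of 21911 protein-coding genes. They were selected on the measured SOX9 signal, as a SOX9 peak near *Tle1* ranked among the strongest of the series, so the signal and rank of that peak are given as a description. A peak was assigned to a member when it overlapped the gene body or the 50 kb to either side of it (mm10). In the 16 pooled peak lists, the 4 loci together held 0, 13, 16, 17 and 4 SOX9 peaks at day 0 (D0) and after 1, 2, 6 and 12 weeks of induction (W1, W2, W6 and W12). Every member had at least 1 SOX9 peak at W1, W2 and W6, against 52.4, 57.5 and 58.7% of all protein-coding genes, and 3 of 4 had one at W12, *Tle3* having 0, against 39.8%. The single *Tle2* peak of W1 and of W6 was not counted in lists of equal size, within 10 kb of the gene, above a maximum of 3600 RPKM or when the nearest start had to be that of *Tle2*, and within 10 kb *Tle1* also had 0 at W1. The single *Tle2* peak of W12 (1930 RPKM) lay in an intron of *BC025920*, 38.3 kb from the *Tle2* start. It was not counted when the nearest start had to be that of *Tle2*, and within 10 kb no member had a W12 peak. The lists differ in length, and in lists cut to the same 9745 peaks of highest total signal the loci held 10, 11, 9 and 4 from W1 to W12, so the high count at W6 was not seen at equal length.

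TLE proteins do not bind DNA by themselves. They are brought to genes by DNA-binding factors such as TCF/LEF, RUNX and HES proteins, form oligomers and recruit histone deacetylases, and so keep target genes low. In Wnt signalling, β-catenin displaces them from TCF/LEF factors, and in skin this switch is known for its part in hair follicle fate.

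The study followed the change of epidermal stem cells (EpdSC) towards a hair follicle and tumour-like state when SOX9, a transcription factor of hair follicle stem cells, is switched on. Binding was measured by CUT&RUN (CNR), in which an antibody guides a nuclease that releases short DNA fragments at bound sites. All skin samples came from male CD1 mice carrying K14rtTA and TRE-myc-Sox9. The keratin 14 promoter drives the doxycycline (DOX)-dependent activator in skin epithelium, and MYC-tagged SOX9 is made when DOX is given. DOX was started at postnatal day 21, except in the grafts. The D0, W1, W2 and W6 cells were taken at days 21, 28, 35 and 63, and the W12 cells came from transgenic epidermis grafted onto Nude hosts, which lack T cells, with DOX begun once the grafts had healed. The D0 mice carried the transgenes but had no DOX. Cells were sorted as negative for CD31, CD45, CD117, CD140a and CD34 and high for CD49f and Ly6A. SOX9 was profiled at all 5 times and MLL3/4, related histone methyltransferases that act at enhancers, at D0, W1 and W2. In cultured male CD1 keratinocytes with K14rtTA and TRE-myc-Sox9, TRE-myc-Sox9noTA or TRE-myc-Sox9noHMG, the MYC tag and MLL3/4 were profiled without DOX and with 1 µg/ml DOX, the time on DOX not being given in the sources used here. DOX switched on full-length SOX9 (WT), a form that lacks the transactivation domain (noTA) or a form that lacks the HMG domain by which SOX9 holds DNA (noHMG). According to the methods these SOX9 transgenes were brought in by lentivirus. The no-DOX lists came from the WT line and served as the only control for all 3 constructs.

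Each list pooled 2 samples before peaks were called, so the values carry no replicate spread, no test between groups was possible and all comparisons below are descriptions. The lists held 792 to 20579 SOX9 peaks, 29281 to 37072 skin MLL3/4 peaks, 2242 to 11341 MYC-tag peaks and 10543 to 33975 culture MLL3/4 peaks. The depth recovered from the signal steps was 13.1 to 32.5 M (mega) fragments for SOX9 and 4.04 to 6.09 M for the MYC tag. It could not be read from the MLL3/4 lists, whose maxima are unscaled coverage and were not compared in height between lists. The cells are populations, so a change in the share of cells with a site and a change in signal per cell cannot be told apart. MLL3/4 peaks lay within 1 kb of the start of 5 of 5 epidermal markers and 0 of 6 markers of other skin cells in the D0 list, and of 3 of 5 and 1 of 6 (*Pecam1*, an endothelial marker) in the no-DOX culture list.

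The sequence under the leading *Tle1* site is shown first because its words recur in the results. Each run has 151 bases of the + strand of mm10, centred on the maximum of the named list. Capitals mark CATTGT or CTTTGT, the core letters of the sequence that SOX proteins bind, AACCACA, a RUNX word, and TGACTCA, an AP-1 word. The upstream *Tle1* runs lie at chr4:72233939-72234089 (W1 maximum) and chr4:72233729-72233879 (W2 maximum), and the second upstream site at chr4:72232312-72232462 (W2 maximum).
Tle1 upstream, W1 maximum: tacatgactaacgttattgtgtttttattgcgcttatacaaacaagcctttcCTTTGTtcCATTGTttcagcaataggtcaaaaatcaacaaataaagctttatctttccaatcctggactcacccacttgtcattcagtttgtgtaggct
Tle1 upstream, W2 maximum: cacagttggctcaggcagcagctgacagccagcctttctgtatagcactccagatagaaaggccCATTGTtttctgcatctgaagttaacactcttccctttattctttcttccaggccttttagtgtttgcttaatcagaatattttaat
Tle1 second upstream site: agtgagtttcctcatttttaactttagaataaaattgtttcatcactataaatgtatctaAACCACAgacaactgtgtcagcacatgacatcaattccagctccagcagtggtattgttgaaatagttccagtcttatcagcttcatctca

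At the W1 maximum, CCTTTGT and CCATTGT stood on the same strand with their starts 8 bp apart. The maxima of 6 lists lay close to this pair, with their centres 13, 5 and 13 bp from CATTGT for SOX9 at W1, SOX9 at W12 and the MYC tag with WT SOX9, and 21, 2 and 25 bp from it for MLL3/4 at W1, at W2 and in culture with WT SOX9. At W2 the SOX9 maximum was 210 bp away and lay 9 bp from another CCATTGT, and at W6 it lay between the 2 positions, 66 bp from the CATTGT of the pair. More than 1 SOX word of 7 letters, that is CATTGT or CTTTGT with a C or a G before it, on either strand and within 50 bp of the maximum, was found in 1.8, 1.51, 1.92 and 2.76% of all windows of W1, W2, W6 and W12 and in 5.25% of MYC-tag WT windows, a count that was made after the sequence had been seen. The leading *Tle1* window of W2 held 1 such word and that of W6 held 0.

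The remaining runs show the site past the end of *Tle1* and the leading sites of *Tle4* and *Tle3*. They lie at chr4:72105904-72106054 (maximum of MLL3/4 with WT SOX9 in culture), chr4:72106082-72106232 (maximum of the MYC tag with WT SOX9), chr19:14620654-14620804 (SOX9, W2) and chr9:61376319-61376469 (SOX9, W2).
Tle1 downstream, MLL3/4 maximum: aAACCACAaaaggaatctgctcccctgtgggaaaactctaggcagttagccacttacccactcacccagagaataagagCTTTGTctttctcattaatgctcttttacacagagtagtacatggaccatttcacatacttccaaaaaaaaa
Tle1 downstream, MYC-tag maximum: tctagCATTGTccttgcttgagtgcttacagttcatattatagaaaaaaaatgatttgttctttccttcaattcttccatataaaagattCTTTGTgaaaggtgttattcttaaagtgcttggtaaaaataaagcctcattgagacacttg
Tle4 upstream: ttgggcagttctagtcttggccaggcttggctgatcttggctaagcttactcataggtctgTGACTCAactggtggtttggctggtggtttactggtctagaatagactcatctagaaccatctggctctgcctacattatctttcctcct
Tle3 gene body: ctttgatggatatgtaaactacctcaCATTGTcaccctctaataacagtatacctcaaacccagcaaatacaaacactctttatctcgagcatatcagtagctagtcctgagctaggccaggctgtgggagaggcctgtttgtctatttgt

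*Tle1* spans chr4:72117142-72200919 on the − strand, and its window held no other protein-coding start. SOX9 peaks numbered 0, 2, 4, 7 and 2 from D0 to W12. The leading site was intergenic, 32.9 kb upstream of the start, and was present in every SOX9 list after D0. Its maximum over W1, W2, W6 and W12 was 13196, 18641, 15069.8 and 10295 RPKM (reads per kilobase, scaled to library size), that is 229, 244, 359 and 224 fragments at the highest point. The Poisson 95% intervals were 11542 to 15020.1, 16375 to 21133, 13551 to 16712 and 8991 to 11735 RPKM. They cover counting error at a maximum that was picked as the highest point and no other error, and since this peak chose the locus no difference between times is read from them. By total signal the peak ranked 12, 6, 6 and 10 in the 4 lists, and by maximum 74, 47, 55 and 88, so its place near the top rested partly on its breadth of 1500, 963, 1076 and 907 bp.

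MLL3/4 had no peak at this site at D0. At W1 a peak with a maximum coverage of 43 lay there and ranked 60 of 31539 by total signal, and at W2 a peak with a maximum of 33 ranked 74 of 29281. The second upstream site, 31.5 kb from the start, had SOX9 maxima of 3861, 3514 and 4408 RPKM at W1, W2 and W6 and no peak at W12. MLL3/4 peaks with maxima of 14 and 16 were gained on it at W1 and W2. The other 7 SOX9 sites of *Tle1* came later. Of these, 2 first appeared at W2 and 5 at W6, and 6 of the 9 sites in all were found in 1 list only. The maxima of these 7 lay between 1847 and 4029.8 RPKM. Of the 5 that first appeared at W6, 4 lay in the gene or at its promoter, and the share over all SOX9 regions was not computed. In lists of equal length *Tle1* had 2, 3, 4 and 2 SOX9 peaks from W1 to W12.

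**Figure D1:**
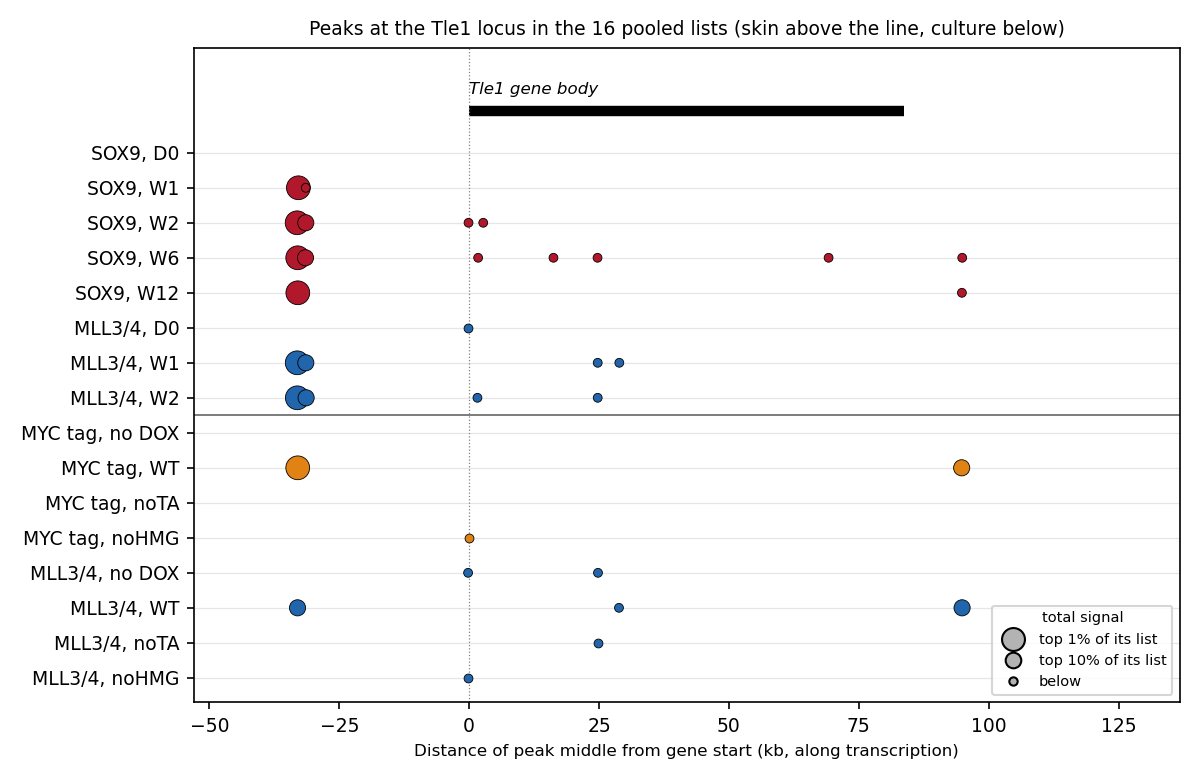
Peaks at the *Tle1* locus in the 16 pooled lists, with the distance of each peak from the gene start in kb on the horizontal axis and dot size giving the place of its total signal in its list. The upstream site stands in the top 1% in all 4 SOX9 lists after D0, in MLL3/4 at W1 and W2 and in the MYC-tag list with WT SOX9, and it is missing at D0, without DOX and with noTA or noHMG.

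In culture the tagged protein was called on this site in the WT list alone. With WT SOX9 the MYC-tag peak had a maximum of 7879.8 RPKM (48 fragments, interval 5809.9 to 10447) and ranked 21 of 6671 by total signal, and 178 by maximum. No MYC-tag peak lay there without DOX, with noTA or with noHMG. MLL3/4 followed the same division, with a peak of coverage 27 that ranked 144 of 10543 with WT SOX9 and none in the no-DOX, noTA and noHMG lists.

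The site past the end of *Tle1*, 94.9 kb from its start, was called in skin and in culture, in lists that differ in length and depth. In skin it had no SOX9 peak at W1 or W2. Its SOX9 maximum was 4029.8 RPKM at W6 (rank 8849 of 20579) and 1930.25 at W12 (rank 5775 of 9745). No MLL3/4 peak lay there at D0, W1 or W2, and MLL3/4 was not profiled in skin at W6 or W12. In culture with WT SOX9 it ranked 268 of 6671 in the MYC-tag list (6895 RPKM, 42 fragments) and 213 of 10543 in the MLL3/4 list (coverage 23), and no other culture list held it. A GCTTTGT lay 6 and 5 bp from the W6 and W12 maxima. Both MYC-tag WT peaks at *Tle1* coincided with SOX9 sites of skin (2 of 2, against 54.6% of all MYC-tag WT peaks). Of the 3 MLL3/4 peaks at the locus with WT SOX9, 2 were gained and lay on these MYC-tag peaks, against 22.4% of that list. The upstream site is the peak that chose the locus, so nothing is read from these counts.

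The start of *Tle1* had weak peaks only. The D0 MLL3/4 list held 1 peak at the whole locus, at the start, with a coverage of 9, and neither W1 nor W2 had it. In culture the peak at the start was present without DOX (coverage 11) and with noHMG (coverage 5) and absent with WT SOX9 and noTA. It ranked 23711 without DOX and 22043 with noHMG, beyond the 10543 peaks of the WT list, so its absence there is not a difference at equal list length. SOX9 itself was called at the start only at W2 (2292 RPKM, 30 fragments), and the noHMG protein, which has no DNA-binding domain, gave a MYC-tag peak of 8 fragments there.

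*Tle4* (chr19:14448150-14598051, − strand) held MLL3/4 peaks in number 13 (D0), 18 (W1) and 12 (W2), the most of the 4 loci at W1 and W2 and as many as *Tle3* at D0. Its window is the longest. Per 100 kb of window *Tle4* held 5.2, 7.2 and 4.8 peaks and *Tle3* 8.9, 4.11 and 6.16 at D0, W1 and W2. Its SOX9 peaks numbered 6, 5, 3 and 1 from W1 to W12, and all 6 sites were already present at W1. The leading site lay 22.8 kb upstream of the start in an intergenic stretch and had maxima of 5301, 6570.2, 5247 and 2298 RPKM from W1 to W12. Unlike the *Tle1* site it was already an MLL3/4 peak at D0 (coverage 30, rank 3206 of 37072), and remained one at W1 (coverage 22, rank 918) and W2 (coverage 26, rank 543).

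In culture the calls at this *Tle4* site differed from those at the upstream *Tle1* site. The MYC tag was called on it with noTA (4718 RPKM, 23 fragments, rank 746 of 11341) and not with WT or noHMG. MLL3/4 was called there without DOX (coverage 32), with noTA (27) and with noHMG (30) and not with WT SOX9. Its ranks in those 3 lists, 4163, 2957 and 2443, lay within the length of the WT list, 10543 peaks. With WT SOX9, however, 82% of all no-DOX peaks were missing, and 58.3% in lists of equal size, so an absence there was the usual outcome. An AP-1 word lay 11 bp from the SOX9 maximum at W1, W2 and W6, and no SOX word of 7 letters lay within 50 bp. The start of *Tle4* carried SOX9 maxima of 2593, 3591 and 1973 RPKM at W1, W2 and W6, but MYC-tag peaks lay there in all 4 culture lists, the no-DOX list included (2834 RPKM, 14 fragments), in which the transgene was not induced.

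*Tle3* (chr9:61372366-61418497, + strand) had 4, 4, 6 and 0 SOX9 peaks from W1 to W12, the only member without a W12 peak. Its leading site by total signal at W1 and W2 lay in the gene body 4.0 kb from the start, within 1 kb of the start of another *Tle3* transcript, and reached 3861, 5729.8 and 2477 RPKM at W1, W2 and W6. MLL3/4 peaks stood there at D0, W1 and W2 with coverages of 27, 29 and 31 and ranks of 1169, 717 and 441. The peak at the start had SOX9 maxima of 4840.4, 4355 and 2729 RPKM and was the only *Tle3* site with a MYC-tag WT peak (2298 RPKM, 14 fragments). A W6 peak of 2225 RPKM crossed the upstream border of the window, and it overlapped MLL3/4 peaks in the no-DOX, noTA and noHMG lists (coverages 31, 21 and 22) and none with WT SOX9. Of the whole no-DOX list 82% of peaks were missing with WT SOX9.

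*Tle2* (chr10:81574561-81590845, + strand) sits in a gene-dense stretch with 6 other protein-coding starts in its window, those of *Gna11*, *Aes* and *Tle6*, both of the TLE family, *BC025920*, *Sirt6* and *Ankrd24*. Its SOX9 peaks numbered 1, 3, 1 and 1 from W1 to W12. Of its 4 sites, 1 had *Tle2* as the nearest start, a weak W2 peak 2.81 kb upstream (2063 RPKM, 27 fragments). The recurrent site, with 2363, 3743 and 2309 RPKM at W1, W2 and W6, lay at the start of *BC025920*, 31.6 kb from that of *Tle2*. *Aes* and *Tle6* showed the same 1, 3, 1 and 1 SOX9 peaks, since their windows share these sites.

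**Figure D2:**
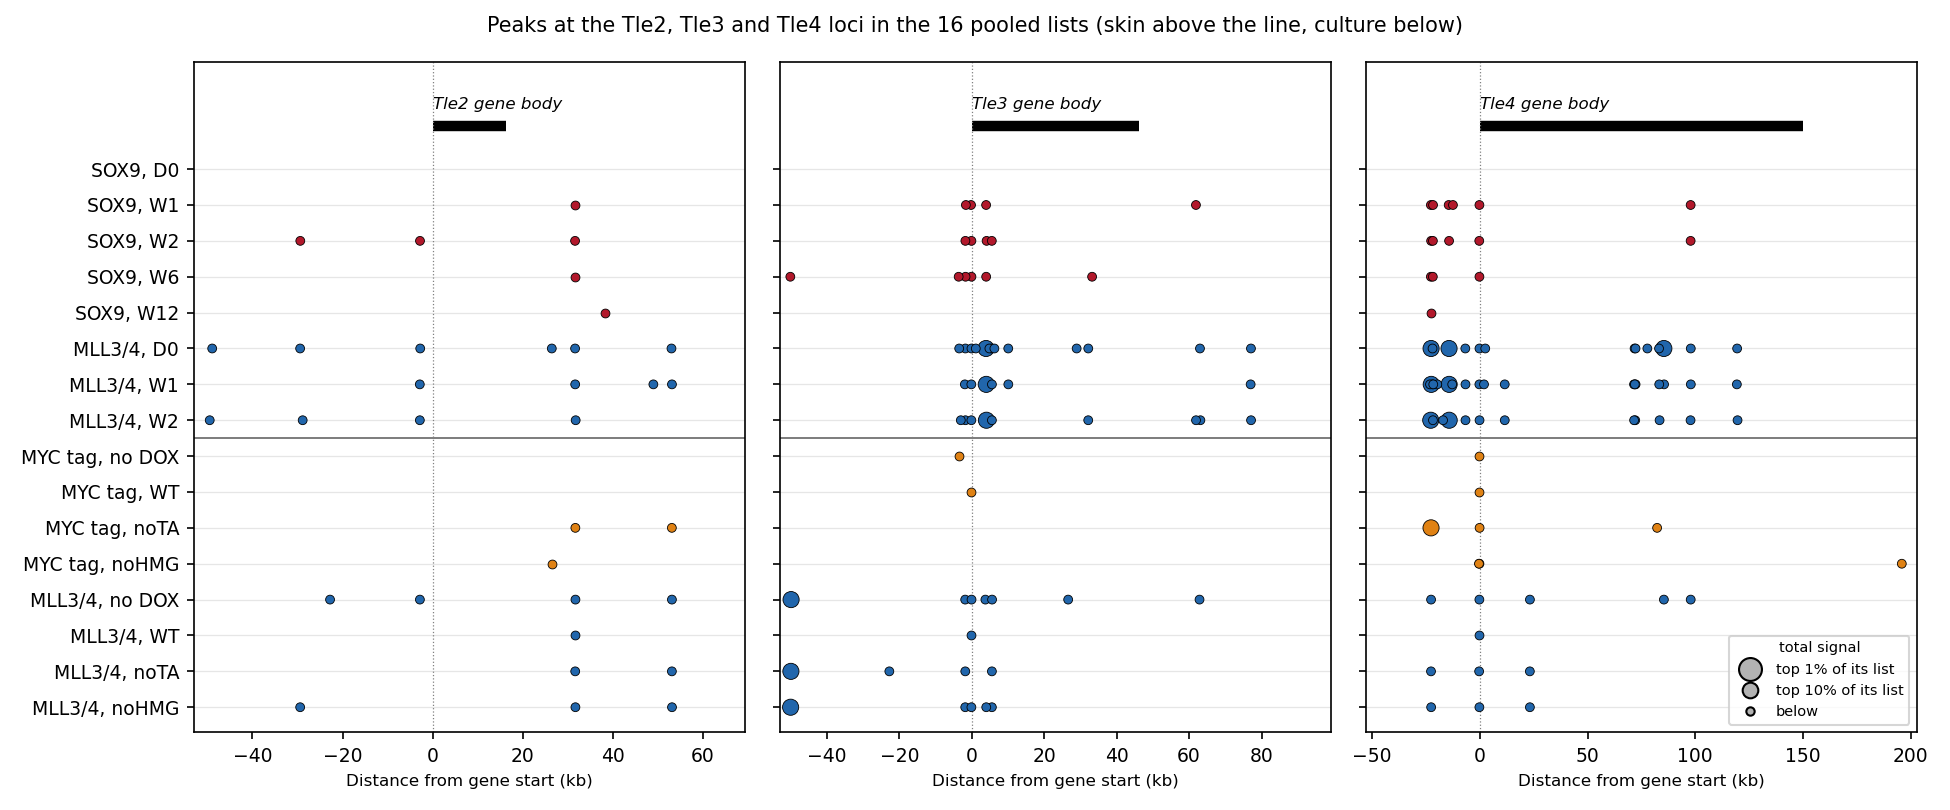
Peaks at the *Tle2*, *Tle3* and *Tle4* loci in the 16 pooled lists, with distance from each gene start in kb and dot size as place in the list by total signal. No SOX9 peak at these loci reached the top 10% of its list, and the MLL3/4 peaks 22.8 kb upstream of *Tle4* and 4.0 kb into *Tle3* were in the D0 list already.

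Merged across times, the 4 loci held 27 SOX9 sites, 9 at *Tle1*, 4 at *Tle2*, 8 at *Tle3* and 6 at *Tle4*. No SOX9 peak lay at the loci at D0, so all 13, 16, 17 and 4 peaks of W1, W2, W6 and W12 were without a D0 counterpart, against 95.3, 96.1, 96.5 and 93.4% of the lists. By time of first appearance, W1 gave 13 sites, W2 gave 5, W6 gave 8 and W12 gave 1. Among all SOX9 regions the shares first seen at these times were 54.4, 20, 21.1 and 4.6%. The sites found in all 4 lists after D0 were 2, the upstream sites of *Tle1* and *Tle4*, against 17.9% of all regions, and 15 were found in 1 list, against 36% of all regions. Of the *Tle4* sites 6 of 6 were present at W1, and of the *Tle1* sites 2 of 9.

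**Figure D3:**
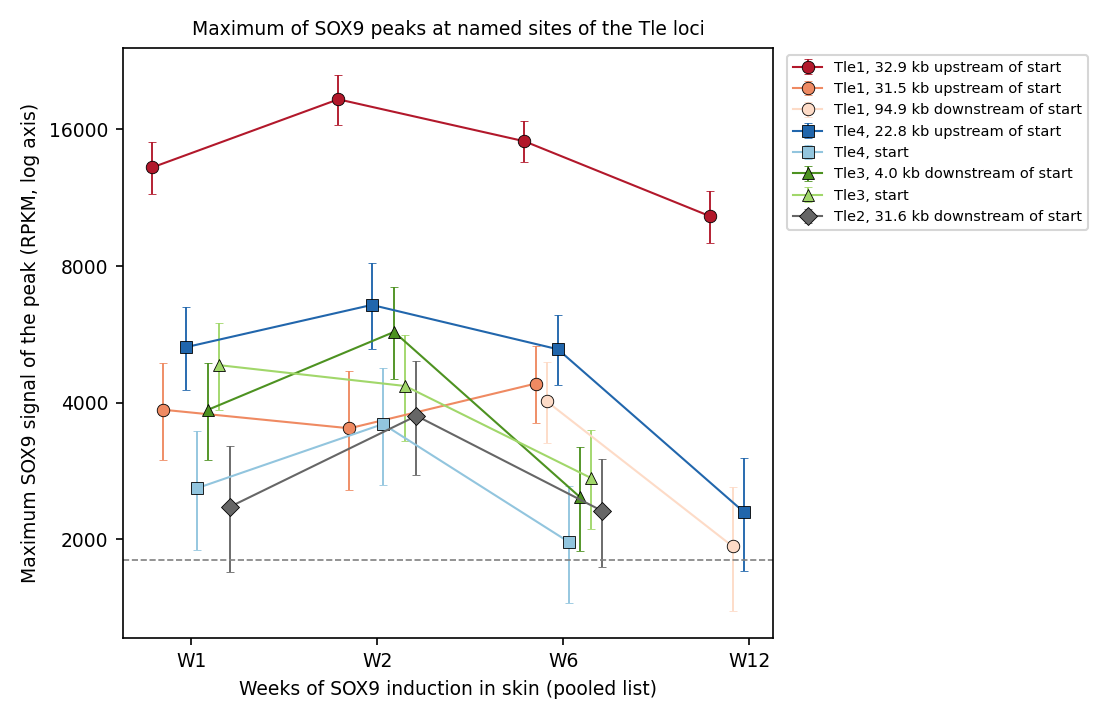
Maximum SOX9 signal in RPKM (log axis) of 8 named sites at W1, W2, W6 and W12 (times spaced evenly, not to scale), with Poisson 95% intervals for counting error, and no point where no peak was called; the dashed line is the score limit of 1800. The upstream *Tle1* site stands above all others at every time, from 10295 to 18641 RPKM, and the upstream *Tle4* site is the only other site shown with a point at all 4 times.

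The share of SOX9 peaks that fell on MLL3/4 peaks already present at D0 was 9 of 13 at W1, 13 of 16 at W2, 8 of 17 at W6 and 1 of 4 at W12. Over the whole lists it was 67.7, 66.3, 52.8 and 40.7%. Counted instead as sites merged across times, D0 MLL3/4 peaks lay under 14 of 27. By member these were 1 of 9 sites at *Tle1*, 3 of 4 at *Tle2*, 5 of 8 at *Tle3* and 5 of 6 at *Tle4*. The share over all merged SOX9 regions was not computed, so these counts are a description.

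Of the 33 MLL3/4 peaks at the loci at D0, 13 had no overlapping peak at W1 and 14 none at W2, against 48.5 and 48.7% of all D0 peaks. At W1, 7 of 13 were missing at *Tle3*, 2 of 13 at *Tle4*, 3 of 6 at *Tle2* and the only one at *Tle1*. Gained MLL3/4 peaks were 11 of 32 at W1 and 10 of 29 at W2, against 39.7 and 35.7% of the lists. At *Tle1* all 4 peaks of W1 and all 4 of W2 were gained, at *Tle3* 0 of 6 and 2 of 9, at *Tle4* 6 of 18 and 2 of 12, and at *Tle2* 1 of 4 and 2 of 4. Gained peaks that also lay on SOX9 peaks of the same time numbered 5 at W1, 2 of them at *Tle1* and 3 at *Tle4*, and 2 at W2, both at *Tle1*, against 12.1 and 13.8% of the lists. Seen from SOX9, 5 of 13 peaks at W1 and 2 of 16 at W2 lay on a gained MLL3/4 peak (23 and 21.1% of the lists). Kept peaks that lay on SOX9 numbered 9 at W1 and 11 at W2 (33.2 and 37.6% of the MLL3/4 lists). None could lie at *Tle1*, where every peak of W1 and W2 was gained. Of the lost D0 peaks, 0 lay under a W1 SOX9 peak and 2 under a W2 SOX9 peak, at the starts of *Tle1* and *Gna11*, against 3.67 and 4.41% of all D0 peaks. The *Tle4* gains on SOX9 lay 12.9, 21.7 and 23.2 kb upstream, with coverages of 5, 7 and 7, next to peaks that had been there at D0.

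In culture the 4 loci held 2, 4, 5 and 5 MYC-tag peaks without DOX and with WT, noTA and noHMG. Of the 4 WT peaks, 3 had no counterpart without DOX, against 94.2% of all WT peaks, and 2 lay on no-DOX MLL3/4 peaks, against 27.7%. Of the 5 noTA peaks, 5 had no counterpart without DOX (94.2% of that list) and 4 lay on no-DOX MLL3/4 peaks (68.3%). The noHMG peaks had 8 to 14 fragments each, and 4 of 5 were absent without DOX (86.6%) and 3 of 5 lay on no-DOX MLL3/4 peaks (52.1%). They lay at the starts of *Tle1*, *Tle4* and *Tle6* and in an intergenic stretch past the end of *Tle4*. The share of all noHMG peaks at starts was not computed. WT peaks lay at the 2 distal *Tle1* sites and the starts of *Tle3* and *Tle4*. The noTA peaks lay at *Tle4*, at *BC025920* and at the starts of *Sirt6* and *Ankrd24*. The start of *Tle4* was the only place in both lists, and it also held no-DOX and noHMG peaks. How often WT and noTA peaks coincide over the whole lists was not computed, so no difference between them is read from these places.

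Culture MLL3/4 peaks at the loci numbered 18 without DOX, 6 with WT, 10 with noTA and 12 with noHMG. With WT SOX9, 15 of 18 no-DOX peaks were missing, against 82% of the no-DOX list, and with noTA and noHMG 9 and 7 of 18 were missing, against 44.3 and 43.5%. The WT list is the shortest. With every culture MLL3/4 list reduced to its 10543 peaks of highest total signal, the loci held 5, 6, 3 and 4 peaks and 3 of 5 no-DOX peaks were missing with WT SOX9, against 58.3% of that reduced list, so the fall in number was not seen in lists of equal size. The gain at *Tle1* was, with 3 gained peaks as deposited and 3 in lists of equal size. Of these 3, 1 had a coverage of 5 (rank 9549) and lay on no MYC-tag peak. With noTA and with noHMG *Tle1* had 1 peak each as deposited, and it was not gained. These peaks ranked 16809 and 22043, beyond the 10543 kept, so the equal lists of noTA and noHMG held no *Tle1* peak that could be gained. In lists of equal size 4 of 6 WT peaks over the loci were gained, against 57.6% of all. As deposited, over the 4 loci, 3 of 6 WT peaks were gained, against 41.8% of that list, 1 of 10 with noTA (26.1%) and 1 of 12 with noHMG (16.7%). The gained noTA and noHMG peaks did not lie on MYC-tag peaks of their construct (0 of 10 and 0 of 12, against 5.23 and 0.283% of the lists).

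**Figure D4:**
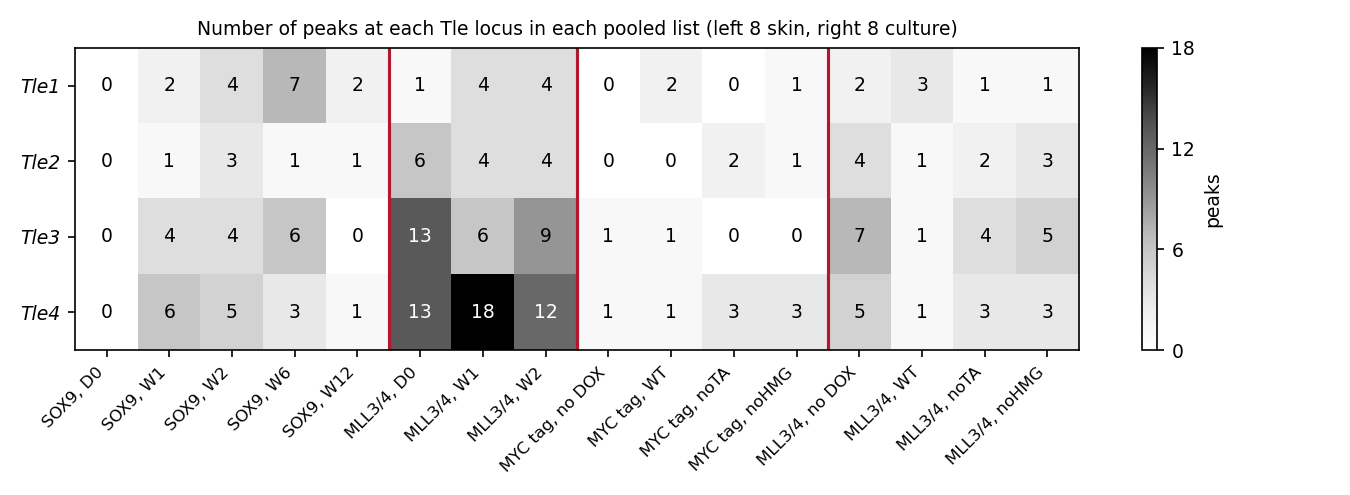
Number of peaks at each Tle locus (rows) in each pooled list (columns), darker for more peaks, skin on the left and culture on the right. *Tle1* is the member with more MLL3/4 peaks after SOX9 in both systems, 1 to 4 in skin and 2 to 3 in culture (with a window of 10 kb the culture change turns to -1), while *Tle3* goes from 13 at D0 to 6 at W1 and 9 at W2, and in culture from 7 to 1, which is 1 and 1 in lists of equal length.

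Between skin and culture, 3 of 13, 3 of 16, 4 of 17 and 2 of 4 SOX9 peaks of W1, W2, W6 and W12 at the loci overlapped a MYC-tag WT peak, against 15.4, 12.8, 15.1 and 25.9% of the lists. The noTA list covered 3, 3, 3 and 1 of the same peaks, against 18.9, 16.7, 20.1 and 34.4%. All 4 WT peaks at the loci and 3 of 5 noTA peaks lay on a SOX9 peak of W1 to W12, against 54.6 and 46% of their lists. The WT peaks include that on the upstream *Tle1* site, which chose the locus. At *Tle1* the noTA list overlapped no SOX9 peak of any time.

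A SOX word of 7 letters within 50 bp of the maximum was present at 1 of 13, 1 of 16, 2 of 17 and 2 of 4 SOX9 peaks of W1, W2, W6 and W12, against 18.5, 15.5, 18.8 and 24.8% of all windows, and in each case the peak was at *Tle1*. The MYC-tag WT peaks had it at 1 of 4 (34.2% of the list), the upstream *Tle1* site, and the noTA peaks at 0 of 5 (12.6%). These counts depended on the definition. Within 100 bp the word was present at 3 of 13, 2 of 16, 6 of 17 and 3 of 4 SOX9 peaks from W1 to W12 (26.5, 23.3, 27.1 and 33.5% of all windows), of which 1, 1, 4 and 2 lay at *Tle1* and the others at *Tle2*, *Tle3* or *Tle4*. Words of 6 letters within 50 bp were present at 4 of 13, 2 of 16, 2 of 17 and 2 of 4 (32.1, 25.7, 31.6 and 41.8%), of which 1, 1, 2 and 2 lay at *Tle1*. The MYC-tag WT peaks had the word within 100 bp at 3 of 4 (44.9%) and a word of 6 letters at 2 of 4 (56.9%), and the noTA peaks at 1 of 5 in both cases (21.4 and 25.3%). AP-1 words stood at 2 of 13, 2 of 16, 2 of 17 and 1 of 4 SOX9 peaks, against 16.2, 15.7, 23.5 and 29.9%, those of W1, W2 and W12 at *Tle4*. They stood at 0 of 4 MYC-tag WT peaks (7.15%) and 1 of 5 noTA peaks (25.7%). The RUNX word was present at 1 of 13 and 1 of 16 SOX9 peaks of W1 and W2, at the second upstream *Tle1* site, and at 0 of 17 and 0 of 4 of W6 and W12, against 2.12, 2.06, 2.77 and 3.43% of all windows. Promoter sequences from RefSeq (GRCm38.p6), matched for all 4 members, held a SOX word at *Tle3* and not at *Tle1*, *Tle2* or *Tle4*, and 16.3% of all promoters held one. These are matches of letters, not measured sites.

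Set among all 21911 protein-coding genes, at least 1 SOX9 peak in the same window was the usual state after induction, with 6.03, 52.4, 57.5, 58.7 and 39.8% of genes from D0 to W12 and a median of 1 peak at W1, W2 and W6. At W6 *Tle1* had 7 peaks, more than 94.98% of genes, and *Tle3* had 6, more than 92.3%. At W1 *Tle4* had 6, more than 95.27%. The members were not alike in this, since *Tle2* with 1 peak exceeded 47.6% of genes at W1 and 41.3% at W6, *Tle1* with 2 peaks 67.1% at W1, *Tle4* with 3 peaks 73% at W6, and *Tle3* had 0 peaks at W12. At W2 the 4 members exceeded 73.1 to 88.1% of genes, and at W12 *Tle1* exceeded 82.02% and *Tle2* and *Tle4* 60.2%. Windows differ in length, that of *Tle4* being the longest at 249.9 kb, and per 100 kb *Tle1* and *Tle3* at W6 and *Tle4* at W1 were denser than 90.9, 92.7 and 85% of genes. In the D0 MLL3/4 list *Tle3* and *Tle4* had 13 peaks each, more than 95.38% of genes, but per 100 kb *Tle3* was denser than 94.7% and *Tle4* than 80.8%. *Tle1* had 1, more than 28.3% of genes and denser than 30.7%. At W1 *Tle4* had 18 MLL3/4 peaks, more than 99.39%, and was denser than 96.1%. At least 1 MLL3/4 peak lay in the windows of 71.7, 67.9 and 65% of genes in the skin lists and of 70.9, 42.4, 65.9 and 64.2% in culture without DOX and with WT, noTA and noHMG, and at least 1 MYC-tag peak in 20.1, 32, 41 and 29.3%. *Tle1*, with 2 MYC-tag and 3 MLL3/4 peaks under WT SOX9, had more than 88.47 and 89.08% of genes there and was denser than 90.8 and 85.6%. Windows of neighbouring genes overlap, so the genes are not independent points.

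Of 14 DNA-binding factors known to recruit TLE proteins, 2 had a SOX9 peak at D0, 8 in each of the W1, W2 and W6 lists and 7 in the W12 list, against 6.03, 52.4, 57.5, 58.7 and 39.8% of all genes. Their median was 0, 1, 1, 2.5 and 1 peaks from D0 to W12, against 0, 1, 1, 1 and 0 over all genes. *Runx1*, a hair follicle stem cell factor, had the most at W2, 11, with 12, 14 and 11 at W1, W6 and W12. *Tcf7*, *Hes5*, *Hey1*, *Hey2*, *Heyl* and *Hhex* had 0 at W2. The genes whose log2(count + 1) over the 16 lists was most like that of a member were *Hspb3*, *Gm5269* and *Tax1bp1* for *Tle1* (Pearson's r of 0.918, 0.9 and 0.896), *Il5*, *Prpf39* and *Fkbp3* for *Tle2* (0.959, 0.947 and 0.947), *Rccd1*, *Prc1* and *Kat7* for *Tle3* (0.978, 0.975 and 0.972) and *Lat*, *Spns1* and *Nfatc2ip* for *Tle4* (0.93, 0.93 and 0.929). The 16 points share depth and list length, and several of these genes share windows.

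No SOX9 peak stood just outside the border of the *Tle1* window. The nearest ones lay 310.6 kb beyond its end (3585 RPKM, W12) and 187.2 kb beyond its start (1805 RPKM, W6), and the outermost inside 10.8 and 32.6 kb away (4029.8 RPKM at W6 and 18641 at W2). For *Tle3* the W6 peak on the border lay 49.6 kb from the gene, and the nearest outside were at 86.9 and 69.2 kb (6339 and 4239.7 RPKM, both W6). For *Tle4* and *Tle2* the nearest outside were at 57.2 and 77.6 kb (2651 and 1844 RPKM, both W1).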

How the data were processed

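CNR lists from 32 of 41 samples were used, and 9 samples (JUN, ARID1A and BRG1) were not analysed here. Groups came from the sample labels. According to the methods, the authors used Skewer for trimming and Bowtie2 2.2.9 for alignment to mm10, removed duplicates with Picard, kept fragments up to 120 bp with SAMtools 1.3.1, pooled replicates, made tracks with deepTools 3.1.2 and called peaks with SEACR (stringent, 0.01). The deposited SOX9 and MYC-tag lists give the maximum of each peak in RPKM, kept by the authors above 1800. The 7 deposited pooled MLL3/4 lists hold unscaled whole-number coverage, although the authors described RPKM tracks, and the total signal of a peak was summed over its bases by the authors. For MLL3/4 with WT SOX9 and DOX, the titles number the 2 samples 1 and 2 but both descriptions speak of replicate 2, and it could not be settled which cultures that list pools.

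Peaks were matched with an overlap of 1 bp to GENCODE M21 genes (mm10), extended by 50 kb. The fragments behind a maximum are the maximum divided by the RPKM step of 1 fragment, with exact Poisson 95% intervals. Ranks are by total signal within a list. A peak was gained when no peak of the D0 or no-DOX list overlapped it, and lost in the reverse case. A promoter is 1 kb to either side of a transcript start. Words were read within 50 bp of the centre of the maximum. The named sites were, for each member, the SOX9 site of highest total signal in each list, those in all 4 lists after D0, those with a MYC-tag WT peak and up to 3 MLL3/4 gains on SOX9. The sites at the *Tle1* start, the sites nearest *Tle2*, the MYC-tag peaks of noTA and noHMG and the pair of SOX words were added after their values had been seen. Of the partner genes, those with the most and fewest SOX9 peaks at W2 were named, and 1 gene of that list is not reported here and was left out of its counts. The members and gene lists were chosen with earlier results of these data known. Python 3.11.15, pandas 2.3.3, numpy 2.4.6, scipy 1.17.1 and matplotlib 3.10.9 were used, and the scripts were tested on simulated data. Alternatives were other windows, signal limits, list sizes, overlaps, merging, word definitions and the no-DOX lists of replicate 1.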

Additional observations from a re-analysis of the deposited data

Results flagged for a closer look

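4 differences moved in opposite directions between groups under the same contrast. None of them was tested, because each group is 1 pooled list. At *Tle4* the number of MLL3/4 peaks in skin was higher by 5 at W1 than at D0 (18 against 13), and at W2 the difference to D0 was -1 (12 against 13). In lists of equal size it was 7 at W1 and 1 at W2. In culture the *Tle4* number with WT SOX9 differed from that without DOX by -4 (1 against 5), opposite to the 5 of skin at W1, and the culture difference was -1 in lists of equal size. At *Tle1* the MLL3/4 number in culture differed from that without DOX by 1 with WT SOX9 (3 against 2), and by -1 with noTA and by -1 with noHMG (1 against 2 in both), and all 3 contrasts share the same no-DOX list. With a window of 10 kb the WT difference at *Tle1* was -1 as well, so the opposite direction was not seen there.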

How the results depend on the processing

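No paired analysis was possible because the authors pooled the replicates into 1 list per group before peaks were called. The score limit sets which weak SOX9 and MYC-tag peaks are listed, and an effect of depth was not tested. Counts below are over the 4 loci, with the value as reported in brackets. With a window of 10 kb, SOX9 peaks numbered 5 (13), 9 (16), 10 (17) and 0 (4) from W1 to W12. MLL3/4 gains in that window were 4 (11) at W1, 0 (5) of them on SOX9, 4 (10) at W2 and 1 (3) in culture with WT SOX9. The MYC tag had 2 (4) WT peaks, 1 (3) of them without a no-DOX peak, and 2 (5) noTA peaks, and the SOX word stood at 0 (1) W2 and 0 (2) W12 peaks. With 100 kb there were 7 (4) SOX9 peaks at W12, 8 (5) noTA peaks and 2 (1) W2 peaks with a SOX word. Above a maximum of 3600 RPKM, SOX9 peaks were 6, 5, 4 and 1 and MYC-tag peaks 2 with WT and 2 with noTA. In lists of equal size SOX9 peaks at W6 were 9 (17), noTA peaks 1 (5) and culture MLL3/4 losses with WT 3 (15). Merging peaks within 500 bp left 3 (5) MLL3/4 gains on SOX9 at W1. W2 peaks with a SOX word were 2 (1) within 100 bp and 2 (1) for words of 6 letters. Counting only peaks whose nearest start is the member, an alternative chosen after seeing the data, as was ranking by maximum, left 3 (5) noTA peaks. The sign of the MLL3/4 change turned in 6 cases. These were 2 in equal lists and 1 by nearest start for W1 minus D0 (-1), 1 in equal lists for W2 minus D0 over the loci (-4) and at *Tle4* (-1), 1 in equal lists for culture WT minus no DOX (-12), and -1 with 10 kb for the same contrast at *Tle1* (1). Against the no-DOX lists without replicate 2, MYC-tag peaks were 5 (2) without DOX and 2 (3) of the WT peaks lacked a counterpart, and MLL3/4 peaks without DOX, losses and gains with WT were 19 (18), 15 (15) and 3 (3). Why these values moved was not tested. Of the alternatives to the main counts over the loci, 29 moved, all given above, and 74 did not. Of those to the secondary counts and the single members, 265 moved, 6 turned and 854 did not, the moved ones including MLL3/4 peaks over the loci with a window of 10 kb, 19 (32) at W1 and 17 (29) at W2.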
